A study of Mus musculus with 56 samples.

Results

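The onset of feeding in the night-fed mouse heart was described from 8 of the 56 libraries of the series, chosen by their labels: 4 made from hearts taken at zeitgeber time 12 (ZT12, hours after lights on) and 4 at ZT16, all under nighttime-restricted feeding (NRF). NRF mice had food in the dark phase, so ZT12 closes the light-phase fast and ZT16 follows 4 h of darkness with access to food. All groups were adult female C57BL/6J mice of 9 weeks on normal chow, housed in a 12 h:12 h light cycle and on their feeding schedule for 7 days. For comparison, 8 libraries of daytime-restricted feeding (DRF) at ZT0 and ZT4 span the corresponding 4 h after food returned in the light phase, and 8 DRF libraries at ZT12 and ZT16 span the same clock hours at the end of the light-phase food access. Each group holds 4 numbered libraries. The labels do not say that these came from separate animals, so p-values measure the spread between libraries, which may be technical. Food, darkness and clock hour change together between ZT12 and ZT16 under NRF and cannot be told apart within that regimen.

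As background, a fasted heart draws mainly on fatty acids, and a meal brings insulin and glucose, which favour glucose uptake and glycogen storage and switch off fasting genes driven by FOXO and PPAR transcription factors. The cardiac clock is a loop in which CLOCK and BMAL1 (encoded by Arntl) activate the Per, Nr1d1 and Dbp genes through E-box DNA elements. Mice are nocturnal, and body temperature rises in their active phase; heat shock genes follow a rise in temperature and RNA-binding cold-shock genes such as Cirbp follow a fall.

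Levels are given in TPM (reads per gene length, scaled to the same total in each library) and differences as ZT16 minus ZT12 on the log2(TPM + 1) scale, which understates changes of genes near 1 TPM. The 8 libraries held 34.3 to 48.3 M recovered reads, and depth (38.4 ± 3.37 M at ZT12, 42.4 ± 4.57 M at ZT16, SD, n = 4 each) was not separated by an exact two-sided permutation test (p = 0.20, where 0.0286 is the smallest possible). Markers of cardiac muscle, such as Myh6 and Tnnt2, summed to 28682 to 31133 TPM at ZT12 and 28889 to 32127 TPM at ZT16, and 0 of the 8 were called. Markers of other tissue varied widely within both groups: erythroid markers summed to 2189 to 42721 TPM at ZT12 and 3283 to 32304 TPM at ZT16, atrial markers to 189 to 1635 TPM at ZT12 and 237 to 4365 TPM at ZT16 and mesothelial markers to 9.93 to 99.7 TPM at ZT12 and 14.6 to 122 TPM at ZT16. Over the 1000 most variable genes, 5 of the 8 libraries correlated best with the mean of their own group. ZT12 replicate 4 was nearest to NRF ZT16, ZT16 replicate 3 to NRF ZT12 and ZT16 replicate 2 to DRF ZT12. Every ZT12 library exceeded every ZT16 library in Nr1d1, Dbp and Per1.

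Of 13878 genes tested with limma (adjusted p under 0.05), 1185 (8.54%) were called between ZT12 and ZT16 in NRF heart, of which 370 (2.67% of those tested) were higher and 815 (5.87%) lower at ZT16. Most changes were modest: the median absolute log2 difference of called genes was 0.39, and 12 genes rose and 16 fell by 1 or more. The balance of rises and falls depended on the scaling. With median-of-ratios scaling, 978 genes were higher and 797 lower, so that rises made up 55.1% of calls against 31.2%, while the median difference of all genes moved from -0.05 to 0.01. All 370 rises and 711 of the 815 falls were called in the same direction under both scalings. Leaving out single libraries gave 179 to 324 rises and 311 to 1047 falls. The count of calls was 548 without ZT16 replicate 1, 552 without ZT12 replicate 2, 618 without ZT12 replicate 3 and 710 without ZT16 replicate 4. Without the 3 libraries nearest to another group it was 891, with 117 rises and 774 falls. The 4 values at ZT12 and the 4 at ZT16 did not overlap for 1023 of the called genes and for 17.9% of all genes tested. In bulk RNA, fewer cells of a type and less RNA per cell cannot be told apart, and this holds for every gene below.

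**Figure D1:**
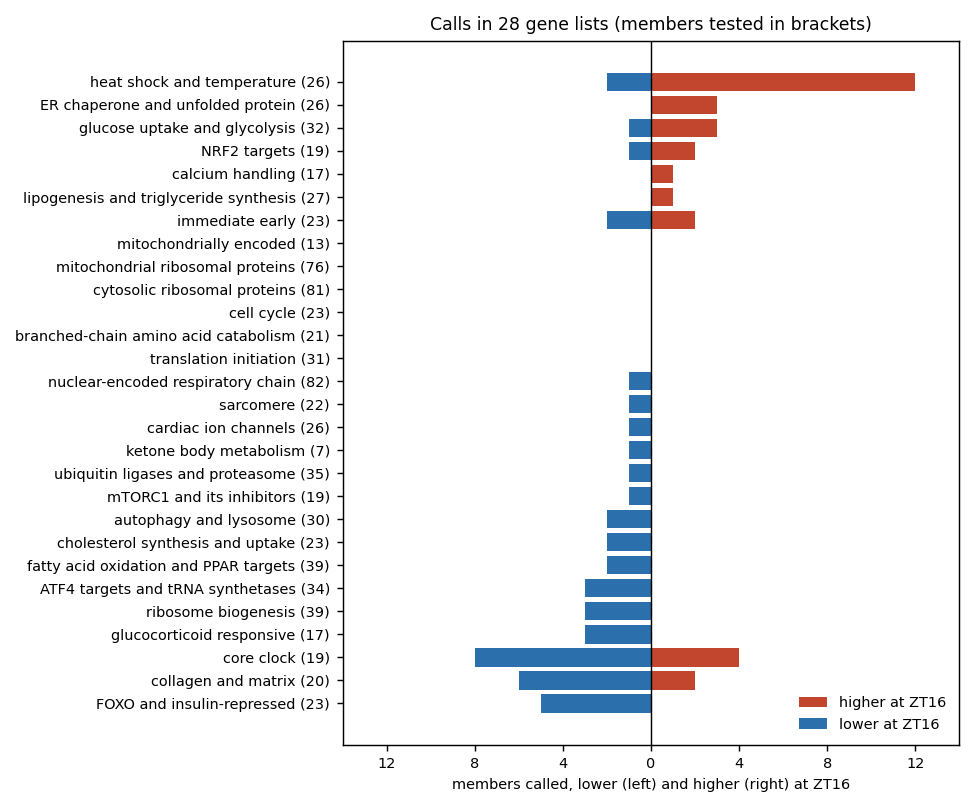
Number of members of 28 gene lists called higher (red bars, right) or lower (blue bars, left) at ZT16 than at ZT12 in NRF heart, with the number of members tested in brackets. The heat shock and temperature list had 12 members higher and 2 lower, and the core clock list 4 higher and 8 lower. Of all genes tested, 2.67% were higher and 5.87% lower.

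Clock genes gave the largest 2 falls by log2 difference, Nr1d1 and Dbp. Of 19 core clock genes tested, 8 fell (Nr1d1, Dbp, Ciart, Per1, Nr1d2, Bhlhe41, Hlf and Per3) and 4 rose (among them Nfil3, Arntl and Clock), beside 5.87% and 2.67% of all genes. The list median was -0.35, beside -0.05 for all genes. The rising genes include the activators Arntl and Clock and the repressor Nfil3. Other repressors and output factors of the loop were not called, among them Per2, Cry1, Cry2, Bhlhe40 and Tef. Leaving out single libraries gave 5 to 8 falls and 2 to 4 rises, with the fewest of both without ZT12 replicate 1.

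Nr1d1 (ENSMUSG00000020889, chr11:98767932-98775333, GRCm38), which encodes the repressor REV-ERBα, stood at 85.6, 73.1, 69.4 and 47.8 TPM in the ZT12 libraries and 18, 23.1, 21.4 and 10.4 TPM in the ZT16 libraries. All 4 ZT16 values lay below all 4 ZT12 values, with ZT12 replicate 4 and ZT16 replicate 4 the lowest of their groups (log2 difference -1.89, SE 0.27, limma adjusted p = 9.3e-05). Dbp (ENSMUSG00000059824, chr7:45705088-45710203), an output transcription factor of the clock, measured 161, 163, 146 and 116 TPM at ZT12 and 43.5, 47.1, 49 and 24.8 TPM at ZT16. Its groups did not overlap either, and the same replicate was lowest in each (log2 difference -1.84, SE 0.42, limma adjusted p = 0.0054). Per1, an inhibitor of CLOCK and BMAL1 that also answers to glucocorticoids, went from 43.2, 42, 49.99 and 42.7 TPM to 12.8, 20.3, 23.9 and 21.9 TPM. It fell by 1.17 (SE 0.36, limma adjusted p = 0.036). For Per1, the call was lost when ZT12 replicates 1, 2 or 3 or ZT16 replicates 1, 2 or 4 was left out (adjusted p up to 0.15), or with no filter on low values (0.054) or in a fit on the 28 NRF libraries (0.077) or without the 3 libraries nearest to another group (0.074). Ciart, another repressor of the loop, fell by 1.55 (SE 0.36, limma adjusted p = 0.0054) from 19.9 ± 3.91 TPM at ZT12 to 6.26 ± 2.01 TPM at ZT16 (SD, n = 4). Bhlhe41, a further E-box repressor, fell by 0.62 (SE 0.14, limma adjusted p = 0.0051). Per2 had overlapping groups, at 25.1, 20.1, 25.8 and 22.4 TPM and 22.5, 31.3, 18 and 15.8 TPM (log2 difference -0.13, SE 0.24, limma adjusted p = 0.81), and its difference turned to 0.007 when ZT16 replicate 4 was left out.

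In the other direction, Nfil3 (ENSMUSG00000056749, chr13:52967209-52981073), which encodes a repressor of the D-box elements that DBP activates, was at 6.43, 6.66, 8.41 and 7.15 TPM at ZT12 and 20.5, 20.3, 16.2 and 20.8 TPM at ZT16. Every ZT16 library was above every ZT12 library, and ZT16 replicate 3 was the lowest of the 4 (log2 difference 1.32, SE 0.25, limma adjusted p = 0.00082). Arntl was scarce at both times, with 0.479, 0.202, 0.139 and 0.254 TPM and 0.905, 1.049, 0.743 and 1.67 TPM. The groups did not overlap (log2 difference 0.71, SE 0.23, limma adjusted p = 0.045). For Arntl, the call was lost when ZT12 replicates 1, 2, 3 or 4 or ZT16 replicates 1, 2 or 4 was left out (adjusted p up to 0.16), or with no filter on low values (0.067) or in a fit on the 28 NRF libraries (0.064) or without the 3 libraries nearest to another group (0.084). It held in 9 of 21 alternative settings. Over these 21 the log2 difference ran from 0.59 to 1.72 and the limma adjusted p from 0.00089 to 0.16.

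Promoter sequence was examined for the genes that moved together, as windows from RefSeq (GRCm38.p6) of 250 bases before to 50 bases after a gene start, searched on both strands. The E-box CACGTG was found in windows of 3 of the 8 falling clock genes (Bhlhe41, Ciart and Per1) and of 0 of the 3 rising ones with a window, and in 8.09% of the 27025 genes of the table. Over all named genes with a window it was found in 10 of 43, which include the rising genes Fv1, Hsph1 and Ppp1r3c. The D-box TTATGNAA was found for Per1 and Per3, against 3.99% of genes. Of the other motifs searched, the cAMP element TGACGTCA was found for Hlf (2.03% of genes) and the NRF1 site GCGCATGCG for Clock (1.95%), and the forkhead site TGTTTAC (4.05%), the sterol element TCACNCCAC (1.44%) and the heat shock pair GAANNTTC (9.04%) for 0 of the called clock genes. The windows of Ciart (chr3:95882179-95882478, minus strand), with 3 E-boxes, and of Per1 (chr11:69098699-69098998, plus strand), with 1, are shown because these had the larger falls among the clock genes with an E-box match. They read 5′ to 3′, with the E-boxes in capitals.
Ciart: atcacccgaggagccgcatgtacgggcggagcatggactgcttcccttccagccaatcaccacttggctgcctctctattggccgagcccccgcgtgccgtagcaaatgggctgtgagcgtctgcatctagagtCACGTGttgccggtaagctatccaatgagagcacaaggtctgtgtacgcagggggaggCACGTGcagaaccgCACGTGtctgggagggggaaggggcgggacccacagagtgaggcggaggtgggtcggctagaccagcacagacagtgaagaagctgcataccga
Per1: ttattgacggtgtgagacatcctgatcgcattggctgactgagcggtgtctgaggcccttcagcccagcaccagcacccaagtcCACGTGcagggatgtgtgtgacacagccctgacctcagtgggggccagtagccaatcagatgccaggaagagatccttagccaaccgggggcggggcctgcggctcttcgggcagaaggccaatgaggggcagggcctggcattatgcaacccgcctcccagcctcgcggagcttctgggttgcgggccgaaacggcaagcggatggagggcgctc
A match describes the letters and not a bound site, and the absence of CACGTG from the windows of Nr1d1 and Dbp says only that these letters do not occur there.

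**Figure D2:**
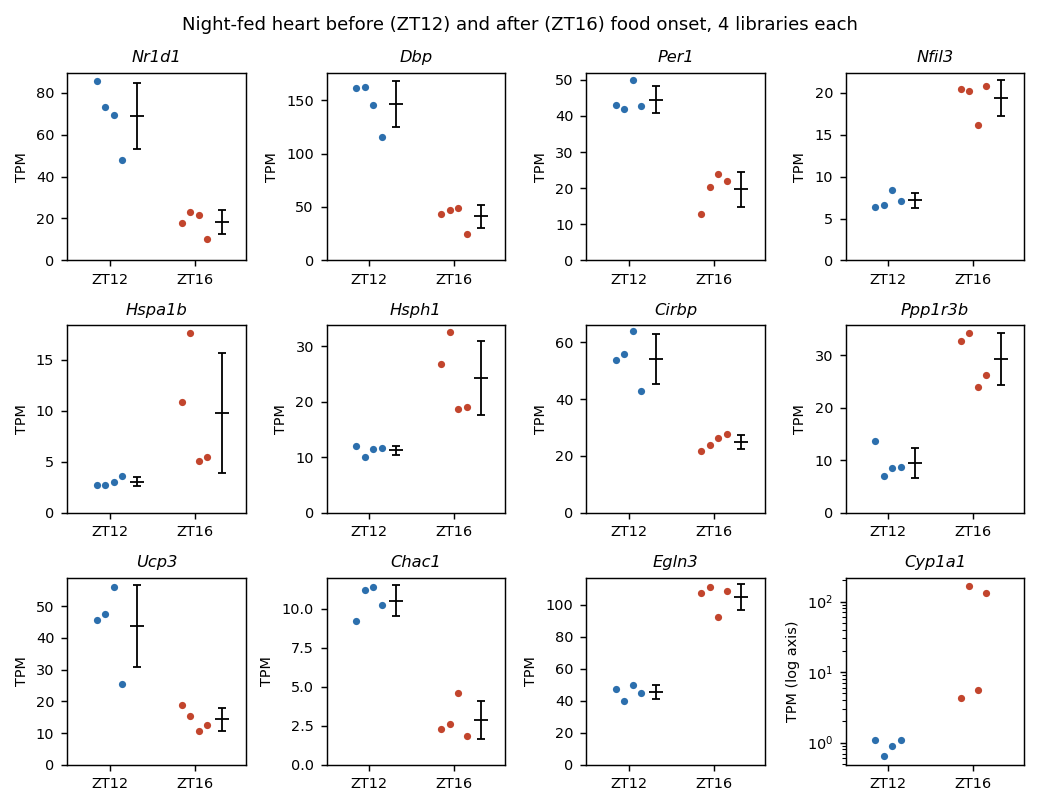
Level in TPM of 12 genes in the 4 ZT12 (blue) and 4 ZT16 (red) libraries of NRF heart, 1 point per library in replicate order, with the mean and SD as black bars (no bar and a log axis for Cyp1a1). The ZT12 and ZT16 points do not overlap in these genes, many of which were picked for that, as in 17.9% of all genes tested, for example 10.5 against 2.85 TPM on average for Chac1.

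Many heat shock genes rose, and the cold-induced genes Cirbp and Rbm3 fell. Of the 26 members tested of the heat shock and temperature list, 12 rose (Hspa1b, Hspa1a, Hsp90aa1, Hsph1, Dnaja1, Chordc1, Hspb1, Hspa8, Stip1, Hspa4l, Ahsa1 and Cacybp) and 2 fell (Cirbp and Rbm3), with a median of 0.27. Over all genes 2.67% rose and 5.87% fell, with a median of -0.05. Under median-of-ratios scaling, 20 members rose and 2 fell, beside 978 and 797 of all 13878 genes. Leaving out single libraries gave 9 to 13 rises in the list, and leaving out the 3 libraries nearest to another group gave 4.

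Hspa1b (ENSMUSG00000090877, chr17:34956436-34959238), an inducible HSP70 chaperone, was at 2.72, 2.74, 3.01 and 3.63 TPM at ZT12 and 10.9, 17.6, 5.03 and 5.46 TPM at ZT16. The ZT16 libraries were all higher but unequal, with replicates 1 and 2 well above replicates 3 and 4 (log2 difference 1.27, SE 0.36, limma adjusted p = 0.022). For Hspa1b, the call was lost when ZT12 replicates 1, 2 or 3 or ZT16 replicates 1 or 2 was left out (adjusted p up to 0.12), or without the 3 libraries nearest to another group (0.096). Its near-identical neighbour Hspa1a had 1.57, 2.09, 1.89 and 1.97 TPM and 7.30, 10.4, 3.46 and 4.38 TPM, with the same order among the ZT16 libraries (log2 difference 1.26, SE 0.31, limma adjusted p = 0.0073), and how reads were split between both copies is uncertain. Hsph1, a co-chaperone of HSP70, rose from 11.9, 10.1, 11.4 and 11.6 TPM to 26.8, 32.6, 18.7 and 19.1 TPM (log2 difference 1.01, SE 0.19, limma adjusted p = 0.00082). Again ZT16 replicates 1 and 2 were the highest. Among the abundant chaperones, Hsp90aa1 (cytosolic HSP90) rose by 1.06 (SE 0.21, limma adjusted p = 0.0016), from 54.8 ± 6.51 TPM at ZT12 to 116 ± 21.3 TPM at ZT16 (SD, n = 4). The constitutive HSP70, Hspa8, rose by 0.66 (SE 0.16, adjusted p = 0.0084) from 513 ± 12.1 TPM at ZT12 to 816 ± 89.5 TPM at ZT16. The small heat shock protein gene Hspb1 rose by 0.71 (SE 0.15, adjusted p = 0.0026), and the HSP70 partner Dnaja1 by 0.87 (SE 0.22, adjusted p = 0.0096).

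Cirbp, the cold-inducible RNA-binding protein gene, was at 53.9, 55.9, 63.9 and 42.8 TPM at ZT12 and 21.8, 23.7, 26.3 and 27.6 TPM at ZT16. The lowest ZT12 value, in replicate 4, was still above the highest ZT16 value (log2 difference -1.08, SE 0.18, limma adjusted p = 0.00025). Rbm3, its relative, went from 35.2, 41.6, 39.1 and 29.4 TPM to 19.2, 23.7, 18.9 and 20.5 TPM, again with no overlap (log2 difference -0.78, SE 0.17, limma adjusted p = 0.0025). Serpinh1, the collagen chaperone HSP47 and likewise a heat shock gene by background knowledge, rose from 240.0, 231, 215 and 235 TPM to 358, 407, 366 and 362 TPM (log2 difference 0.70, SE 0.18, limma adjusted p = 0.0097), with ZT16 replicate 2 above the other three, and its call was lost without the 3 libraries nearest to another group (adjusted p = 0.077).

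The pair GAANNTTC, the facing core of the heat shock element, was found in windows of 6 of the 10 rising members of the list with a RefSeq window (Chordc1, Dnaja1, Hspa1a, Hspa1b, Hspb1 and Hsph1), in 0 of the 1 falling member with one (Cirbp), and in 9.04% of all genes of the table. The windows of Hspa1b (chr17:34959189-34959488, minus strand), Hspb1 (chr5:135887669-135887968, plus strand), Dnaja1 (chr4:40722218-40722517, plus strand) and Chordc1 (chr9:18292017-18292316, plus strand) are printed because they carry this shared element, with the matches in capitals.
Hspa1b: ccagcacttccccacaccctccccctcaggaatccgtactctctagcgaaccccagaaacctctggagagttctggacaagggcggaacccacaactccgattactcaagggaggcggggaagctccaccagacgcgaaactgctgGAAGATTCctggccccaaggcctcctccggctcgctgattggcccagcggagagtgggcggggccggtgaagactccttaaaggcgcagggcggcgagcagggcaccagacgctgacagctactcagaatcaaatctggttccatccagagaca
Hspb1: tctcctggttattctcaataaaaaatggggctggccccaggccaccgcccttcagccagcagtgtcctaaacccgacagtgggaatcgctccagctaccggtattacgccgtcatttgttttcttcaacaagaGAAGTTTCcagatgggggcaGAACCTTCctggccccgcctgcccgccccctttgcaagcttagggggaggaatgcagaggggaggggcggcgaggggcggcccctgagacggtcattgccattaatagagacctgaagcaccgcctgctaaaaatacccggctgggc
Dnaja1: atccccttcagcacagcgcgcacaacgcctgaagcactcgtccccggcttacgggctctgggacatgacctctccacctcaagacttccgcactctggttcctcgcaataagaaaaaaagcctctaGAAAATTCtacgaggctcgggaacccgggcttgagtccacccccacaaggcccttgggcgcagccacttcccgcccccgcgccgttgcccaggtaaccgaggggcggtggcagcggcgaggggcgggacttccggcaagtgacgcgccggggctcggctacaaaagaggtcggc
Chordc1: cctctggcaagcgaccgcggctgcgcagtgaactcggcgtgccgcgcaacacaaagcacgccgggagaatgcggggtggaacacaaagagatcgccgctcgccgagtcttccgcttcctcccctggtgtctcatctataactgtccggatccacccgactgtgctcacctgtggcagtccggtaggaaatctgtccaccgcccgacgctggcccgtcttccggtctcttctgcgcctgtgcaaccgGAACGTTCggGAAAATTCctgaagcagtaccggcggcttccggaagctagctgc
Hspb1 and Chordc1 held 2 matches each, and Hspa1b and Dnaja1 held 1.

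**Figure D3:**
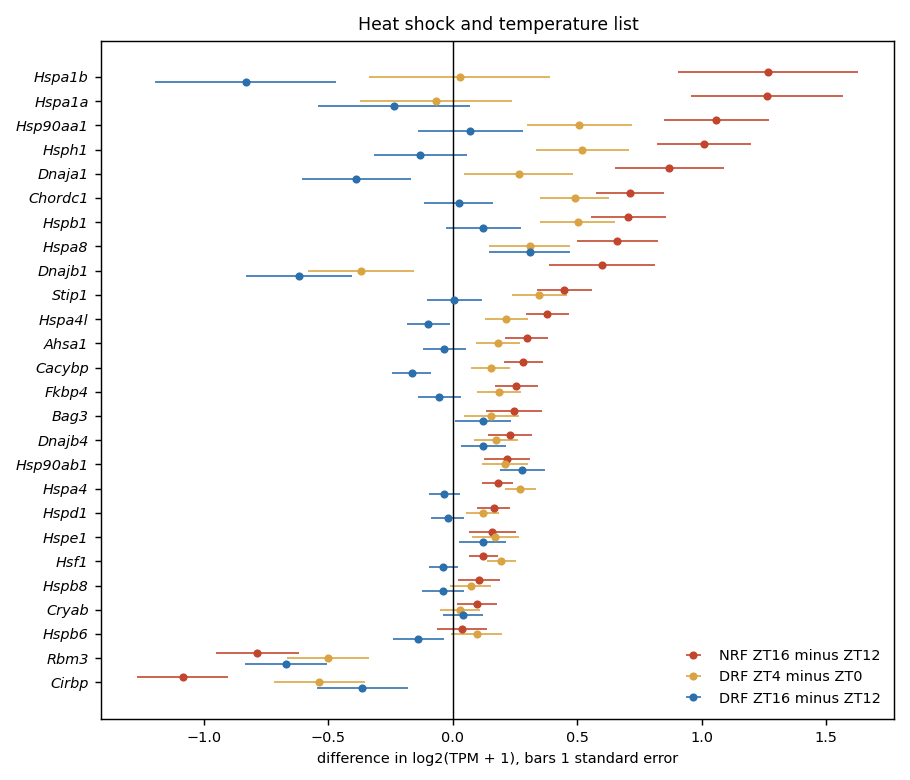
Differences in log2(TPM + 1) with 1 standard error for the 26 tested members of the heat shock and temperature list, in NRF heart from ZT12 to ZT16 (red), in DRF heart from ZT0 to ZT4 (yellow) and in DRF heart from ZT12 to ZT16 (blue). Hspa1b was at 1.27, 0.03 and -0.83, and Cirbp was below 0 in all 3.

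Ppp1r3b (ENSMUSG00000046794, chr8:35375739-35388139), which encodes a subunit that brings protein phosphatase 1 to glycogen and so activates glycogen synthase, was at 13.6, 7.03, 8.48 and 8.73 TPM at ZT12 and 32.6, 34.2, 24 and 26.3 TPM at ZT16. The groups did not overlap (log2 difference 1.56, SE 0.26, limma adjusted p = 0.00024). The related subunit Ppp1r3c went from 58.9, 54.2, 56.4 and 76.5 TPM to 99.4, 112, 112 and 99.4 TPM, also without overlap (log2 difference 0.78, SE 0.17, limma adjusted p = 0.0031). Of 32 genes of glucose uptake and glycolysis, 3 rose (Ppp1r3c, Pgam1 and Ppp1r3d) and 1 fell (Pfkfb3), with a median of -0.02. Over all genes 2.67% rose and 5.87% fell. Without the 3 libraries nearest to another group 1 member of this list rose. Pfkfb3, which makes the activator of phosphofructokinase fructose 2,6-bisphosphate, was at 11.5, 9.46, 10.9 and 7.28 TPM and 4.27, 5.56, 4.16 and 4.85 TPM (log2 difference -0.91, SE 0.17, limma adjusted p = 0.00075). Lpin1, which makes diacylglycerol, was the 1 member of 27 lipogenic genes that rose (log2 difference 0.35, SE 0.11, limma adjusted p = 0.031). This count was close to the 2.67% of all genes that rose. For Lpin1, the call was lost when ZT12 replicates 1 or 2 or ZT16 replicates 1, 2 or 4 was left out (adjusted p up to 0.13), or without the 3 libraries nearest to another group (0.08). Under median-of-ratios scaling 5 lipogenic genes rose, and without the 3 libraries nearest to another group 0 rose and 3 fell. Of 23 cholesterol genes, 0 rose and 2 fell (Dhcr7 and Mvd), with Dhcr7, the last enzyme of the pathway, at log2 difference -0.40, SE 0.09, limma adjusted p = 0.004. These counts stood beside 2.67% of all genes that rose and 5.87% that fell. Leaving out single libraries gave 1 to 3 falls in the cholesterol list, and other settings gave 0 to 2.

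Of 39 genes of fatty acid oxidation and PPAR targets, 0 rose and 2 fell, close to the 5.87% of all genes that fell, and the list median was -0.06 beside -0.05. The members called were Ucp3 (ENSMUSG00000032942, chr7:100472990-100486432), a mitochondrial carrier induced by fasting, and Cpt1a, which admits long-chain fatty acids to mitochondria. Ucp3 was at 45.6, 47.5, 56.2 and 25.5 TPM at ZT12 and 18.9, 15.2, 10.7 and 12.5 TPM at ZT16. Replicate 4 was the lowest at ZT12 and still above every ZT16 library (log2 difference -1.52, SE 0.43, limma adjusted p = 0.021). For Ucp3, the call was lost when ZT12 replicates 1, 2 or 3 or ZT16 replicates 3 or 4 was left out (adjusted p up to 0.079), or without the 3 libraries nearest to another group (0.07). Cpt1a went from 48.2, 43.6, 53.8 and 34.9 TPM to 27.3, 26.3, 27.7 and 25 TPM (log2 difference -0.73, SE 0.17, limma adjusted p = 0.0072). Pdk4, the kinase that shuts pyruvate out of oxidation, had 158, 137, 153 and 68.1 TPM and 105, 86.4, 48.9 and 73.9 TPM. ZT12 replicate 4 lay inside the ZT16 range, and the difference was not called (log2 difference -0.69, SE 0.46, limma adjusted p = 0.38). Angptl4, an inhibitor of lipoprotein lipase, was likewise lowest at ZT12 in replicate 4 and overlapped (log2 difference -0.88, SE 0.58, limma adjusted p = 0.37). Arrdc2, an arrestin-family gene, measured 20.2, 13.1, 13.1 and 11.3 TPM and 5.25, 6.59, 3.91 and 4.68 TPM (log2 difference -1.32, SE 0.22, limma adjusted p = 0.00025).

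In the list of FOXO and insulin-repressed genes, 0 of 23 rose and 5 fell (Pik3ip1, Fbxo32, Gadd45a, Cited2 and Eif4ebp1), with 2 to 6 falls when single libraries were left out and the fewest without ZT12 replicate 2. The share of all genes that fell was 5.87%, and the list median of -0.04 stood beside -0.05 for all genes. Under median-of-ratios scaling 2 members rose and 4 fell. Pik3ip1, an inhibitor of PI3 kinase, went from 35.3, 49.2, 46 and 40.3 TPM to 23.5, 29.5, 27.2 and 21.4 TPM (log2 difference -0.73, SE 0.17, limma adjusted p = 0.0058). Fbxo32, the muscle ubiquitin ligase atrogin-1, was at 35.5, 52.5, 50.7 and 55.2 TPM and 22.2, 29.5, 37 and 28.5 TPM. ZT12 replicate 1 fell inside the ZT16 range (log2 difference -0.71, SE 0.22, limma adjusted p = 0.033). For Fbxo32, the call was lost when ZT12 replicates 2, 3 or 4 or ZT16 replicates 1, 2 or 4 was left out (adjusted p up to 0.15), or with scaling that left out mitochondrially encoded genes (0.053) or in a fit on the 28 NRF libraries (0.069) or without the 3 libraries nearest to another group (0.064). Castor1, the arginine sensor that holds back mTORC1 and the 1 of 19 genes of the mTORC1 list called, fell by 0.83 (SE 0.15, limma adjusted p = 0.00054), from 15.5 ± 2.62 TPM at ZT12 to 8.29 ± 1.35 TPM at ZT16 (SD, n = 4). That count was close to the 5.87% of all genes that fell, and under median-of-ratios scaling 2 members of the mTORC1 list rose and 1 fell. Klhl38, a muscle Kelch-family gene, fell by 1.06 (SE 0.30, limma adjusted p = 0.019). For Klhl38, the call was lost when ZT12 replicates 2 or 3 or ZT16 replicate 1 was left out (adjusted p up to 0.086), or without the 3 libraries nearest to another group (0.062). The kinase gene Pim3 fell from 148, 152, 158 and 132 TPM to 60.4, 76.6, 70.7 and 71.2 TPM without overlap (log2 difference -1.07, SE 0.21, limma adjusted p = 0.0011). Klf15 and Txnip, both fasting-responsive by background knowledge, had non-overlapping groups but were not called: Klf15 measured 57.9, 55.6, 58.5 and 55.6 TPM and 40.4, 49.7, 34.3 and 31.1 TPM (adjusted p = 0.11), and Txnip 377, 417, 276 and 256 TPM and 175, 224, 167 and 253 TPM (adjusted p = 0.16). In a limma fit on these 8 libraries alone both passed (adjusted p = 0.025 for Klf15 and 0.046 for Txnip).

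Chac1 (ENSMUSG00000027313, chr2:119351229-119354381), a glutathione-degrading enzyme and an ATF4 target, was at 9.25, 11.2, 11.4 and 10.2 TPM at ZT12 and 2.31, 2.64, 4.60 and 1.84 TPM at ZT16. The lowest ZT12 value was above the highest ZT16 value (log2 difference -1.63, SE 0.31, limma adjusted p = 0.00091). In the list of ATF4 targets and tRNA synthetases, 3 of 34 members fell (Chac1, Vars and Lars), 0 rose, and the median was -0.06, beside 5.87% of all genes that fell and a median of -0.05 over all genes. Leaving out single libraries gave 1 to 4 falls in this list, with the fewest without ZT12 replicate 3. In the list of ER chaperones and the unfolded protein response, 3 of 26 rose (Atf6, Dnajc3 and Atf4) and 0 fell, with Atf6, a sensor of unfolded protein in the ER, at 26.3, 22.7, 27.8 and 27.1 TPM and 35.2, 38.3, 35.1 and 37.8 TPM (log2 difference 0.48, SE 0.09, limma adjusted p = 0.00075). Over all genes 2.67% rose. In this list 1 member rose without ZT12 replicate 2, and 1 without the 3 libraries nearest to another group.

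Several of the largest changes lay outside these pathways. Cyp1a1 (ENSMUSG00000032315, chr9:57687928-57703824), a detoxifying enzyme induced through the aryl hydrocarbon receptor, had 1.09, 0.64, 0.89 and 1.09 TPM at ZT12 and 4.28, 165, 5.62 and 131 TPM at ZT16. All ZT16 libraries were above all ZT12 libraries, but replicates 2 and 4 were over 100 TPM and replicates 1 and 3 under 6 TPM, so a mean describes none of them (log2 difference 3.95, SE 0.63, limma adjusted p = 0.00024). Fitted on the 8 libraries alone, its adjusted p was 0.0499. Egln3 (ENSMUSG00000035105, chr12:54178981-54203860), the oxygen-sensing prolyl hydroxylase PHD3, was even across libraries, at 47.4, 39.7, 49.8 and 44.8 TPM and 107, 111, 92.6 and 108 TPM (log2 difference 1.19, SE 0.18, limma adjusted p = 9.6e-05). Cited4, a transcriptional co-regulator, went from 32.2, 29.96, 26.8 and 31.9 TPM to 55.9, 66.5, 55.3 and 63.5 TPM (log2 difference 0.97, SE 0.24, limma adjusted p = 0.0095), and its call was lost without the 3 libraries nearest to another group (adjusted p = 0.056). Rtn4r, the Nogo receptor, rose by 1.17 (SE 0.33, limma adjusted p = 0.019). For Rtn4r, the call was lost when ZT12 replicates 2 or 3 or ZT16 replicate 1 was left out (adjusted p up to 0.076), or without the 3 libraries nearest to another group (0.11). Rasl10a, a small GTPase gene, rose by 1.04 (SE 0.20, limma adjusted p = 0.00092), from 5.32 ± 1.59 TPM at ZT12 to 11.8 ± 1.73 TPM at ZT16 (SD, n = 4). Nppb, the B-type natriuretic peptide, rose by 1.02 (SE 0.34, limma adjusted p = 0.049), from 192, 156, 94.7 and 84.4 TPM to 212, 260.4, 322 and 229.8 TPM, close to the threshold. For Nppb, the call was lost when ZT12 replicates 2, 3 or 4 or ZT16 replicates 1, 2, 3 or 4 was left out (adjusted p up to 0.16), or with no filter on low values (0.074) or with no trend in the spread (0.051) or with the replicate block (0.053) or without the 3 libraries nearest to another group (0.38). Of 5 atrial markers, 0 were called and their summed ranges overlapped, but 5 of 5 had a higher mean at ZT16 (median log2 difference 0.69, from 0.40 to 1.59), as had 5 of 5 erythroid (median 0.67) and 5 of 5 mesothelial markers (median 0.68). Their part in the Nppb result was not tested. The mitochondrial 16S ribosomal RNA mt-Rnr2, read here after polyA selection, went from 6140.1, 5906, 5992 and 7006 TPM to 13597, 13478, 11106 and 12448 TPM (log2 difference 1.01, SE 0.18, limma adjusted p = 0.00043), while 0 of the 13 mitochondrially encoded protein genes were called and their share of reads with the other mitochondrial genes was 20.3 ± 0.42% and 20.8 ± 0.88% (SD, n = 4 each, exact permutation p = 0.29).

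Among the falls, Gstt2, a glutathione transferase, fell by 1.03 (SE 0.16, limma adjusted p = 0.00024), from 11.7 ± 2.09 TPM at ZT12 to 5.18 ± 0.784 TPM at ZT16 (SD, n = 4). Tcap, the telethonin of the sarcomeric Z-disc, was the 1 of 22 sarcomere genes called, beside 5.87% of all genes that fell. Its levels were 5566, 5148, 5105 and 4756 TPM and 2840.1, 3256, 2949 and 2511 TPM (log2 difference -0.84, SE 0.23, limma adjusted p = 0.017). For Tcap, the call was lost when ZT16 replicate 4 was left out (adjusted p up to 0.06). Of 26 cardiac ion channel genes, 1 fell, the potassium channel subunit Kcne1 (log2 difference -0.61, SE 0.16, limma adjusted p = 0.014). For Kcne1, the call was lost when ZT12 replicate 3 or ZT16 replicate 1 was left out (adjusted p up to 0.068), or without the 3 libraries nearest to another group (0.12). The count was under the 5.87% of all genes that fell, and under median-of-ratios scaling 2 ion channel genes rose and 2 fell. Jph2, which couples the T-tubule to the sarcoplasmic reticulum, was the 1 of 17 calcium handling genes to rise (log2 difference 0.28, SE 0.08, limma adjusted p = 0.028). That count stood beside 2.67% of all genes that rose, and went to 0 without ZT12 replicate 2. For Jph2, the call was lost when ZT12 replicates 2 or 3 or ZT16 replicates 1, 3 or 4 was left out (adjusted p up to 0.1), or without the 3 libraries nearest to another group (0.11).

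Several structural collagens fell. Of 20 matrix genes, 6 fell (Col3a1, Col15a1, Col1a1, Col6a1, Col5a1 and Col6a2) and 2 rose (Serpinh1 and Lox, a chaperone and a crosslinking enzyme of collagen), with a median of -0.43. Over all genes 5.87% fell and 2.67% rose, with a median of -0.05. Col3a1 was at 107, 115, 95.4 and 93.8 TPM and 47.6, 57.7, 73.8 and 57.6 TPM (log2 difference -0.80, SE 0.25, limma adjusted p = 0.038). For Col3a1, the call was lost when ZT12 replicates 1, 2 or 3 or ZT16 replicates 1, 2 or 4 was left out (adjusted p up to 0.14), or with no filter on low values (0.057) or without the 3 libraries nearest to another group (0.058). The count of falls went to 0 without ZT12 replicate 2. Fibroblast markers, which share Col1a1 and Col3a1 with this list, summed to 755 to 916 TPM at ZT12 and 592 to 747 TPM at ZT16, and 2 of 7 (these same genes) were called lower. Smooth muscle markers summed to 796 to 925 TPM at ZT12 and 711 to 869 TPM at ZT16 and macrophage markers to 525 to 565 TPM at ZT12 and 464 to 539 TPM at ZT16, with 0 of 7 called in each. Of the macrophage markers 7 of 7 had a log2 difference below 0 (median -0.20), as had 6 of 7 smooth muscle markers (median -0.29) and 5 of 7 fibroblast markers (median -0.34). Their part in the collagen values was not tested.

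Many lists held few calls or none, beside 2.67% of all genes that rose and 5.87% that fell. Under median-of-ratios scaling the immediate early list had 5 rises, and the lists of cholesterol synthesis, ATF4 targets, ribosome biogenesis and autophagy had 1 each. Of 23 immediate early genes, 2 rose (Atf3 and Srf) and 2 fell (Zfp36 and Fosl1). Atf3, a stress-induced repressor, was at log2 difference 0.90, SE 0.28, limma adjusted p = 0.039. For Atf3, the call was lost when ZT12 replicates 1, 2 or 3 or ZT16 replicates 1, 2, 3 or 4 was left out (adjusted p up to 0.13), or with no filter on low values (0.06) or without the 3 libraries nearest to another group (0.16). Of 17 glucocorticoid-responsive genes, 3 fell (Per1, Gadd45b and Nfkbia) and 0 rose, with a median of -0.43. In that list 1 member fell without ZT12 replicate 2, and other settings gave 1 to 7 falls. Of 19 NRF2 targets, 2 rose (Srxn1 and Txnrd1) and 1 fell (Abcc1). In the lists of ribosome biogenesis, 3 of 39 fell (Ddx10, Rrp9 and Ncl), and in autophagy and lysosome 2 of 30 fell (Pik3c3 and Fundc1), again beside 5.87% of all genes. Without ZT12 replicate 1 the falls in these lists were 1 and 1. For Srxn1 the call was lost when ZT16 replicate 1 was left out (adjusted p up to 0.06), or without the 3 libraries nearest to another group (0.076), for Ddx10 the call was lost when ZT12 replicate 1 was left out (adjusted p up to 0.055) and for Zfp36 the call was lost when ZT12 replicates 2 or 3 was left out (adjusted p up to 0.055). With this limma test, 0 genes were called among 81 cytosolic ribosomal proteins (median -0.01), 76 mitochondrial ribosomal proteins (median 0.03), 31 translation initiation genes (median -0.08), 21 genes of branched-chain amino acid breakdown and 23 cell cycle genes (with an unadjusted p under 0.05 for 0, 7, 7, 2 and 3 of them). Of 82 nuclear-encoded respiratory chain genes, 1 fell (Ndufa4l2). For Ndufa4l2, the call was lost when ZT12 replicate 2 was left out (adjusted p up to 0.086). With median-of-ratios scaling the calls in those 5 lists were 1, 2, 2, 0 and 0.

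The 4 h after food return in day-fed heart, DRF ZT0 to ZT4, were set beside the NRF change. They differ from it in clock hour, light and regimen, which cannot be told apart, so a shared or unshared change is not assigned to food. Of the 4 DRF ZT0 libraries 4 were nearest to their own group, but of the 4 DRF ZT4 libraries 0 were (replicates 1 and 3 nearest to NRF ZT4, replicate 2 to DRF ZT12 and replicate 4 to NRF ZT24), so each count of that comparison rests on a scattered group. There 178 genes rose (1.28%) and 143 fell (1.03%), a total of 321 that ranged from 92 without DRF ZT4 replicate 3 to 808 without DRF ZT4 replicate 1. Of the 370 NRF rises, 52 (14.1% of them and 29.2% of the DRF rises) also rose and 2 fell. Of the 815 NRF falls, 38 (4.66% of them and 26.6% of the DRF falls) also fell and 4 rose. The difference between both changes, tested as an interaction, was called for 79 genes (0.569%), 60 of them among the 1185 NRF calls. With median-of-ratios scaling it was called for 249 genes. The count ranged from 27 (without ZT12 replicate 1 or ZT16 replicate 4) to 185 (without DRF ZT4 replicate 4), and of the 16 libraries left out in turn it stayed within 1.5 times of 79 for 2, DRF ZT0 replicate 4 (67) and DRF ZT4 replicate 2 (74).

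In the core clock list, 6 of 19 genes were more negative and 1 more positive in NRF, beside 0.569% of all genes called for this difference. Nr1d1 rose in DRF by 1.81 (SE 0.27, adjusted p = 0.00028), and the NRF change was lower by a difference of -3.70, SE 0.39, adjusted p = 2.6e-08. Dbp rose in DRF by 1.53 (SE 0.42, adjusted p = 0.042), with a difference of -3.37, SE 0.60, adjusted p = 0.0038. Bhlhe41 also rose there, by 0.78 (SE 0.14, adjusted p = 0.00088), with a difference of -1.41, SE 0.20, adjusted p = 7.5e-05. Nfil3 stood at -0.16 (SE 0.25, adjusted p = 0.81) in DRF, against its NRF rise of 1.32, with a difference of 1.48, SE 0.35, adjusted p = 0.03. Ndufs6b and Tmem171, which rose in NRF by 0.67 and 0.69, fell in DRF by 0.88 and 0.75, and both differences were called (adjusted p = 0.0087 each). Ndufs6b is annotated as a processed pseudogene. For Ndufs6b, the call was lost when ZT12 replicates 1, 2, 3 or 4 or ZT16 replicates 1, 2, 3 or 4 was left out (adjusted p up to 0.19), or with no filter on low values (0.073) or with no trend in the spread (0.051) or in a fit on the 28 NRF libraries (0.073) or without the 3 libraries nearest to another group (0.22), and for Tmem171, the call was lost when ZT12 replicates 1 or 3 or ZT16 replicates 2 or 4 was left out (adjusted p up to 0.12), or without the 3 libraries nearest to another group (0.077).

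Genes that moved the same way after food in both regimens included Per1, Arrdc2, Zfp36 and Klhl38, called lower in each. Per1 changed by -1.37 (SE 0.36, adjusted p = 0.032) in DRF, Arrdc2 by -0.87 (SE 0.22, adjusted p = 0.026) and Zfp36, an mRNA-decay factor, by -0.75 (SE 0.16, adjusted p = 0.0057). Ucp3 measured -1.46 (SE 0.43, adjusted p = 0.055) in DRF, which did not pass the test, beside -1.52 in NRF. Among rises, Egln3 changed by 0.75 (SE 0.18, adjusted p = 0.012), Rtn4r by 1.51 (SE 0.33, adjusted p = 0.0074) and Serpinh1 by 0.90 (SE 0.18, adjusted p = 0.0023), all called in both. Of 26 ER chaperone genes, 16 rose in DRF and 3 in NRF, beside 1.28% and 2.67% of all genes. The limma interaction was called for 0 of the 26, with an unadjusted p under 0.05 for 17 and 2 calls under median-of-ratios scaling. In the heat shock list 2 of 26 rose in DRF and the limma interaction was called for 0, with an unadjusted p under 0.05 for 4 and 1 call under the other scaling.

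The same clock hours in day-fed heart, DRF ZT12 to ZT16, share the hour and the dark with the NRF change and differ in food access and regimen. All 8 of these libraries were nearest to their own group. Over these hours 148 genes rose (1.07%) and 672 fell (4.84%), a total of 820 that ranged from 267 without DRF ZT12 replicate 2 to 1028 without DRF ZT12 replicate 3. Of the NRF rises, 20 (5.41% of them and 13.5% of the DRF rises) also rose and 13 fell. Of the NRF falls, 108 (13.3% of them and 16.1% of the DRF falls) also fell and 10 rose. The interaction was called for 347 genes (2.5%), 192 of them among the NRF calls, and for 707 with median-of-ratios scaling. Leaving out single libraries gave 163 (without DRF ZT12 replicate 4) to 364, and the count was also moved by over 1.5 times without DRF ZT16 replicate 4 (197), ZT12 replicate 2 (197), ZT16 replicate 4 (200), ZT16 replicate 2 (212) or ZT12 replicate 4 (228). Without the 3 libraries nearest to another group it was 117.

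In this limma interaction 0 of 19 core clock genes were called, with an unadjusted p under 0.05 for 3 and 1 call under median-of-ratios scaling. By contrast, 8 of 26 heat shock genes were more positive in NRF (6 called under the other scaling) and 7 of 23 FOXO and insulin-repressed genes more negative, with 1 more positive. This difference was called for 2.5% of all genes. Nr1d1 fell in DRF by 1.18 (SE 0.27, adjusted p = 0.0091) and Dbp by 1.53 (SE 0.42, adjusted p = 0.025). The DRF groups of Dbp overlapped, at 54.4 to 63.8 TPM at ZT12 and 10.6 to 55.5 TPM at ZT16. Ppp1r3b was at -0.78 (SE 0.26, adjusted p = 0.057) in DRF, and its NRF rise exceeded this by 2.34, SE 0.36, adjusted p = 0.00035. Chac1 rose in DRF by 0.97 (SE 0.31, adjusted p = 0.049) where it fell in NRF, a difference of -2.59, SE 0.43, adjusted p = 0.00056. Hspa1b was at -0.83 (SE 0.36, adjusted p = 0.15), with a difference of 2.10, SE 0.51, adjusted p = 0.019. Its DRF groups overlapped and were uneven, at 4.44 to 25.9 TPM at ZT12 and 3.21 to 5.39 TPM at ZT16. Hsph1 was at -0.13 (SE 0.19, adjusted p = 0.71), with a difference of 1.14, SE 0.26, adjusted p = 0.013. It overlapped in DRF too, at 15.5 to 33.0 TPM at ZT12 and 15.2 to 20.7 TPM at ZT16. Cited4 was at -0.74 (SE 0.24, adjusted p = 0.058), with a difference of 1.72, SE 0.35, adjusted p = 0.0034.

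Pik3ip1 rose in DRF by 0.55 (SE 0.17, adjusted p = 0.043), opposite to NRF, with a difference of -1.28, SE 0.24, adjusted p = 0.0022. Neat1, a long noncoding RNA of nuclear paraspeckles, and Tcf23, a transcription factor gene, likewise rose in DRF, by 0.79 and 0.81, and fell in NRF, by 0.64 and 0.61. In NRF, Neat1 was not called under median-of-ratios scaling (adjusted p = 0.056) and the call was lost when ZT12 replicates 1, 2 or 3 or ZT16 replicates 1, 2, 3 or 4 was left out (adjusted p up to 0.12), or with no filter on low values (0.053) or with scaling that left out mitochondrially encoded genes (0.068) or on the depth-scaled scale (0.053) or without the 3 libraries nearest to another group (0.075), and for Tcf23 the call was lost when ZT12 replicates 1 or 3 or ZT16 replicates 1, 3 or 4 was left out (adjusted p up to 0.12), or in a fit on the 28 NRF libraries (0.055). Fbxo32 measured 0.66 (SE 0.22, adjusted p = 0.058) in DRF, with a difference of -1.37, SE 0.31, adjusted p = 0.0093. Klf15, not called in NRF, had a called difference of -1.14, SE 0.32, adjusted p = 0.037. Cyp1a1 measured 1.01 (SE 0.63, adjusted p = 0.33) in DRF at these hours and 0.91 (SE 0.63, adjusted p = 0.51) after daytime food, and neither difference from NRF passed the test (adjusted p = 0.064 and 0.1).

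**Figure D4:**
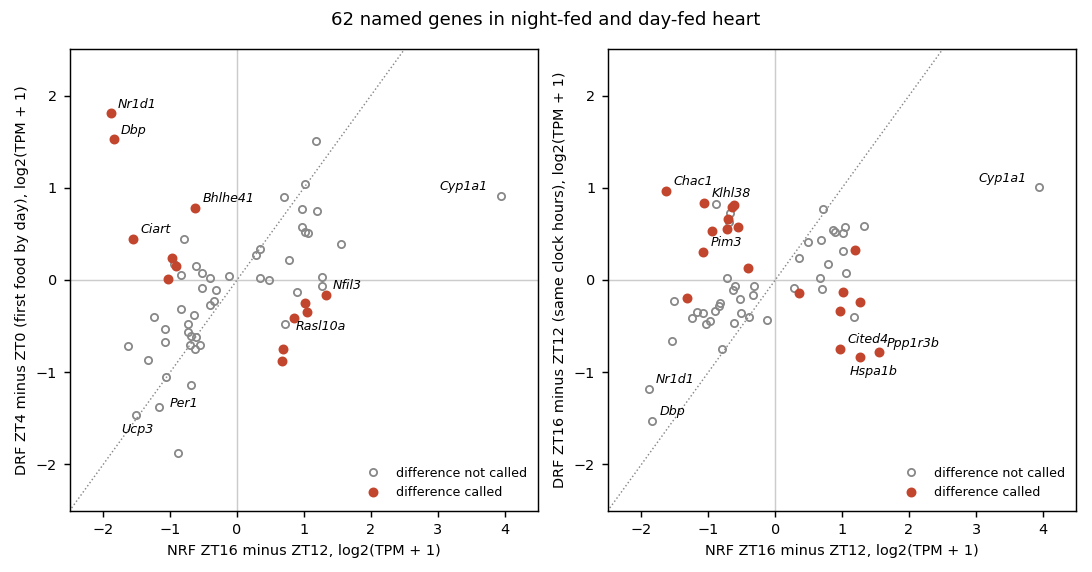
Change of the 62 named genes in NRF heart from ZT12 to ZT16 (horizontal axes, log2(TPM + 1)) against their change in DRF heart from ZT0 to ZT4 (left) and from ZT12 to ZT16 (right), with the line of equal change dotted and genes whose difference was called in red. Nr1d1 lies at -1.89 against 1.81 on the left and against -1.18 on the right.

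Over the NRF day, by group mean, 25 of the 62 named genes were highest of the 7 NRF times at ZT12 and 18 lowest there, while 7 were highest and 10 lowest at ZT16. These counts describe genes that were largely chosen for a change between ZT12 and ZT16. Chac1 averaged 5.12 ± 3.09 TPM at ZT8, 10.5 ± 0.989 at ZT12 and 2.36 ± 0.844 at ZT20 (SD, n = 4 each). Hsph1 averaged 24.3 ± 6.71 TPM at ZT16 and 29 ± 4.43 at ZT20, a step smaller than the SD of the ZT16 libraries. Ppp1r3b had its highest mean at ZT16 and stood at 23.3 ± 6.26 TPM at ZT20. Nr1d1 had its highest mean already at ZT8, at 125 ± 49.5 TPM, and its lowest at ZT20, at 5.23 ± 0.311 TPM. Cyp1a1 ranged from 3.36 to 13.9 TPM at ZT20 and from 35.1 to 123 TPM at DRF ZT8, the other group in which a library exceeded 100 TPM.

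**Figure D5:**
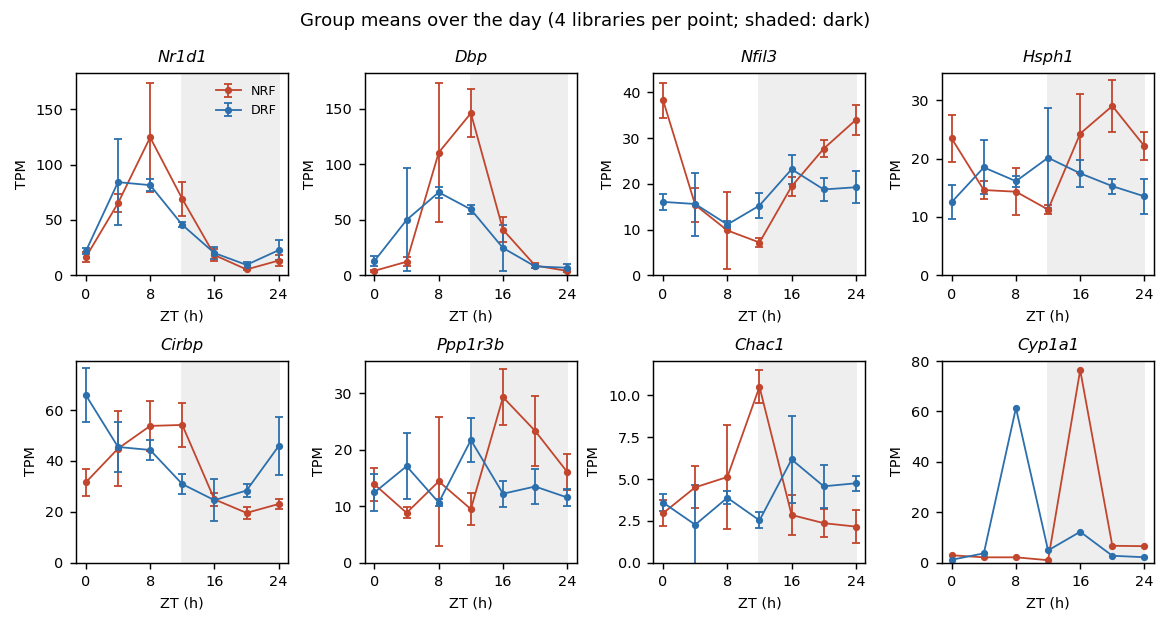
Mean level in TPM with SD (4 libraries per point, no bars for Cyp1a1) of 8 genes over 7 zeitgeber times in NRF (red) and DRF (blue) heart, with the dark phase shaded. Chac1 is highest at NRF ZT12 (10.5 TPM), and Cyp1a1 has high means at NRF ZT16 (76.4 TPM) and DRF ZT8 (61.3 TPM).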

How the data were processed

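Hearts of DRF and NRF mice were sampled at 7 zeitgeber times with 4 libraries each. Per the labels' processing notes, the authors aligned reads with HISAT2 (2.0.5) to mm10 and counted them per gene with featureCounts (1.5.0-p3), from a polyA library kit that does not mark strand. The deposited table is labelled TPM, but its values are on another scale: they follow, as tested on the file, a log2 of 1 plus depth-scaled reads, divided by gene length. These values were inverted with GENCODE M21 lengths to whole reads (99.9998% of values within 0.1 of a whole number), and linear TPM was recomputed from them. Of 22864 genes listed, 1 was not resolved (Atp5a1) and was left out, and 835 whose length did not match the annotation were scaled by a length found by search.

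Genes averaging 1 TPM or more across all 56 libraries were fitted on log2(TPM + 1) in limma (3.58.1, R 4.3.3) with 14 group means, a trended variance prior and Benjamini-Hochberg adjustment over 13878 genes. A gene was called at an adjusted p under 0.05. Differences between changes were contrasts of the same fit, and the NRF change shares no libraries with either DRF change. Library measures used exact two-sided permutation tests. On simulated data for the NRF comparison over 13883 genes, 93% of 2-fold and 63.6% of 1.5-fold changes were called, with 23 false calls beside 199 changed genes. Genes named were the 12 largest rises and 12 largest falls among called genes whose groups did not overlap, the called member of each list with the largest rise and with the largest fall, 14 genes of textbook feeding, clock and temperature responses, and the 5 largest called differences from each DRF change in each direction, without predicted gene models. Hspa8, Hspb1, Dnaja1 and Rbm3 were added after their values were seen. Some genes that met these rules are not reported here. The members and lists were chosen with earlier results of these data known. Alternatives were median-of-ratios scaling, other pseudocounts and filters, other sample sets, a replicate block and each library left out, and leaving out 3 libraries nearest to another group was added after seeing the data. Promoter windows came from RefSeq (GRCm38.p6), and gene positions from GENCODE (GRCm38).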

Additional observations from a re-analysis of the deposited data

Results flagged for a closer look

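In groups of 4, a library was set apart where its gap to the nearest other exceeded 0.829 of the group's range (Dixon), which chance gives in about 1 in 20 groups, and 7 of the 130 groups examined did so. Nfil3 measured 16.2 TPM in ZT16 replicate 3 against 20.3 to 20.8 TPM in the others. Rtn4r measured 11.9 TPM in ZT16 replicate 4 against 15.7 to 16.2 TPM. Serpinh1 measured 407 TPM in ZT16 replicate 2 against 358 to 366 TPM. Pik3c3, the lipid kinase that starts autophagosomes, measured 9.21 TPM in ZT16 replicate 1 against 10.7 to 10.9 TPM. Ndufa4l2 measured 56.6 TPM in ZT16 replicate 3 against 44.3 to 44.8 TPM. Pdk4 measured 68.1 TPM in ZT12 replicate 4 against 137 to 158 TPM. Per1 measured 50 TPM in ZT12 replicate 3 against 42 to 43.2 TPM.

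The NRF change (ZT16 minus ZT12) exceeded the DRF change after food (ZT4 minus ZT0), by limma interaction on the log2(TPM + 1) scale, by 1.55 for Ndufs6b (a processed pseudogene), 1.48 for Nfil3, 1.44 for Tmem171, 1.38 for Rasl10a, 1.27 for Fam124b and 1.26 for mt-Rnr2. It was below the DRF change for Nr1d1 (-3.70), Dbp (-3.37), Ciart (-2.0), Bhlhe41 (-1.41), Ces2e (-1.21), Pfkfb3 (-1.06) and Gstt2 (-1.04). The adjusted p of these 13 differences ran from 2.6e-08 (Nr1d1) to 0.049 (Ciart).

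Against the DRF change at the same clock hours (ZT16 minus ZT12), the NRF change was above it by 2.34 for Ppp1r3b, 2.10 for Hspa1b, 1.72 for Cited4, 1.5 for Hspa1a, 1.30 for Fv1, 1.14 for Hsph1, 0.86 for Egln3 and 0.49 for Srxn1. It was below for Chac1 (-2.59), Klhl38 (-1.90), Gadd45b (-1.48), Neat1 (-1.43), Tcf23 (-1.42), Pim3 (-1.38), Fbxo32 (-1.37), Pik3ip1 (-1.28), Klf15 (-1.14), Arrdc2 (-1.13) and Pik3c3 (-0.53). The adjusted p of these 19 differences ran from 0.00035 (Ppp1r3b) to 0.047 (Egln3).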

How the results depend on the processing

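With 4 libraries a group, the number of calls depended on scaling and on single libraries, and the cause was not tested. The 1185 calls of the NRF comparison became 1807 on the log2(1 + depth-scaled reads) scale and 382 at an adjusted p under 0.01. The 370 rises became 978 under median-of-ratios scaling, 1025 on the depth-scaled scale, 144 at the stricter threshold, 236 in a fit on 8 libraries with the replicate block and 117 without the 3 libraries nearest to another group. The 815 falls became 539 with a mean of at least 5 TPM and 238 at the stricter threshold. The 79 differences from DRF ZT4 against ZT0 became 249, 259 and 20 under median-of-ratios scaling, the depth-scaled scale and the stricter threshold, 126 with scaling that left out mitochondrially encoded genes, and 38 in a fit on 16 libraries. The 347 differences from DRF ZT16 against ZT12 became 707, 740 and 85, and 117 without the 3 libraries. The 321 calls of DRF ZT4 against ZT0 became 918, 979 and 96. The 820 calls of DRF ZT16 against ZT12 became 546 with no filter on low values and 156 at the stricter threshold. Leaving out single libraries gave 548 to 1334 calls, 179 to 324 rises and 311 to 1047 falls in NRF, 27 to 185 and 163 to 364 differences, and 92 to 808 and 267 to 1028 DRF calls. Per2, which was not called, ranged from -0.306 without ZT16 replicate 2 to 0.007 without ZT16 replicate 4.

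The labels give the groups the same replicate numbers, but the numbers did not pair the samples: over same-numbered ZT12 and ZT16 libraries, deviations from group means correlated by -0.07, 0.17, -0.05 and 0.15, and not every library correlated best with its own number. With the replicate block the NRF comparison had 1127 calls (364 rises, 763 falls), the differences 68 and 337, and the DRF comparisons 285 and 839. In a fit on 8 libraries with the replicate block, the named genes Cyp1a1 (adjusted p = 0.058), Hspa1b (0.061), Nppb (0.063), Arntl (0.052), Jph2 (0.052), Dhcr7 (0.067), Ndufa4l2 (0.067) and Slc16a7 (0.073) were not called, while Klf15 (0.043) and Angptl4 (0.041) were.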

Other observations

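Further genes that were called in NRF heart are given here as values; they were chosen after their values were seen, and no list was tested. P4ha1, a collagen prolyl hydroxylase, was at 28.7, 27.6, 28.6 and 28.8 TPM at ZT12 and 56.4, 66, 45.9 and 43.4 TPM at ZT16 (log2 difference 0.85, SE 0.17, limma adjusted p = 0.0018). Vegfa, the vascular growth factor, was at 84.7, 63.7, 87.4 and 86.3 TPM and 124, 131, 110.4 and 115 TPM (log2 difference 0.58, SE 0.15, limma adjusted p = 0.013). Edn1, which encodes endothelin, rose by 0.61 (SE 0.15, limma adjusted p = 0.0067), and Siah2, a ubiquitin ligase, by 0.66 (SE 0.16, limma adjusted p = 0.0079). Of genes that share hypoxia responsiveness with Vegfa by background knowledge, Slc2a1 and Ldha were not called (adjusted p = 0.31 and 0.87).

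The splicing factor gene Srsf5 fell from 86.5, 83.6, 88.9 and 66.1 TPM to 37.9, 48.3, 45.1 and 48 TPM (log2 difference -0.84, SE 0.21, limma adjusted p = 0.0085). Ankrd1, a stress-responsive cardiac ankyrin repeat gene, fell by 0.75 (SE 0.18, limma adjusted p = 0.0073), from 855, 915, 696 and 689 TPM to 404, 479, 569.6 and 429.7 TPM. The 12S ribosomal RNA of mitochondria, mt-Rnr1, moved beside mt-Rnr2, from 4072, 4671, 4819 and 5124 TPM to 8522, 9372, 7146 and 9164 TPM (log2 difference 0.87, SE 0.18, limma adjusted p = 0.0022). Of other aryl hydrocarbon receptor targets, Cyp1b1 was at 6.15, 6.73, 6.91 and 5.28 TPM and 3.55, 20.8, 4.31 and 7.92 TPM and Tiparp at 8.87, 9.44, 8.68 and 7.83 TPM and 8.23, 11.9, 8.80 and 9.11 TPM, and neither was called (adjusted p = 0.73 and 0.5). ZT16 replicate 2 was highest of the 8 libraries in both, as it was in Cyp1a1.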
